A study of Rattus norvegicus with 6 samples.

Results

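The cytosolic heat shock chaperones were followed in colonic epithelium (its inner layer) from 6 male Wistar rats, all adult. 3 animals received melatonin (1 mg/kg, intraperitoneal, numbered 4 to 6) and 3 received vehicle (2.5% ethanol in PBS, numbered 1 to 3). All 6 had had the pineal gland removed, so both groups lacked its nightly melatonin. Each injection was given as subjective night began, and the animals were killed 4 h after it. The group of genes was drawn up by name and holds 10 genes, Hspa1a, Hspa1b, Hspa8, Hsp90aa1, Hsp90ab1, Dnaja1, Dnajb1, Hsph1, Hspb1 and Hsf1, out of 12340 genes in the table. 8 of the 10 had a row whose transcript matched the gene by RefSeq accession. Dnajb1 was taken from a row that the authors' deposited table pairs with the protein dnaJ homolog subfamily B member 1 (NM_001108441). Hspa1b had no row by accession. A second Hspa1 row (NM_212504) has heat shock 70kD protein 1B as its best protein match in the authors' deposited table, but the Hspa1a row (NM_031971) carries the same match there, so the pair is shown side by side and the second row is not taken as Hspa1b alone. Each of the 10 rows is 1 transcript.

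Cytosolic chaperones hold newly made or damaged proteins in a state from which they can fold. HSP70 proteins bind unfolded stretches, J-proteins such as Dnaja1 and Dnajb1 deliver clients and start ATP hydrolysis, and Hsph1 (HSP110) exchanges the nucleotide so that the client is let go. HSP90 proteins take over partly folded clients, among them steroid receptors and kinases. Hsf1 is the transcription factor that binds heat shock elements in the promoters of these genes under proteotoxic stress, and it is itself held inactive by chaperones. The colonic epithelium is renewed within days and faces bacterial products of the lumen, and inducible HSP70 and Hspb1 (the small heat shock protein HSP25 in rodents) have long been studied there.

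The heat shock element is an array of the letters GAA and its reverse complement, TTC, alternating with a gap of any 2 bases. The sequences below are shown so that the members can be compared for this element near their annotated starts. They are the 250 bases before the annotated start, 5' to 3', credited to RefSeq on GRCr8, and capitals mark each match to GAANNTTCNNGAA on either strand. The table used for them held 7 of the 10 members, and Hspa1b, Hsp90aa1 and Hsf1 are not among them.
Hspa8 (GRCr8 chr8:50080264-50080513, plus strand): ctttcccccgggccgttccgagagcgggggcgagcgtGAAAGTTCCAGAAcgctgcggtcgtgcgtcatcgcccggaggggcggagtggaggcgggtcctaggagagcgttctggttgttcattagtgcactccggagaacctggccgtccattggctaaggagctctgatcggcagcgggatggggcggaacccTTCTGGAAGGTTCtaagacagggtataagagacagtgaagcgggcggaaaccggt
Hsph1 (GRCr8 chr12:10427118-10427367, plus strand): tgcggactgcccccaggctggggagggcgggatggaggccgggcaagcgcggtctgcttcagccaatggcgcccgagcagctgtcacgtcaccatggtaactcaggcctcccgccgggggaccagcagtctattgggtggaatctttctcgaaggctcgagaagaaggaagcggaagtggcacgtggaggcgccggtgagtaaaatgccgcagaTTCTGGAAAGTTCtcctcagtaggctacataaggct
Hspa1a (GRCr8 chr20:3859506-3859755, plus strand): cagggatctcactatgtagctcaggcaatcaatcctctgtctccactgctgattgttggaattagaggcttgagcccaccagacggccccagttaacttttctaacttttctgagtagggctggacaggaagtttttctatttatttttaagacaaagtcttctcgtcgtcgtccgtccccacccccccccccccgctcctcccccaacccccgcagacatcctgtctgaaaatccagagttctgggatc
In the window of 300 bases that also takes in the first 50 after the start, 3 of the 7 members held the 13-letter element, against 0.798% of 33469 promoters of that length. Hspa8 held it at 213 to 201 bases and again at 55 to 43 bases before the start, and Hsph1 at 36 to 24 bases before it. Dnaja1 held it just after its start, as GAACTTTCCAGAA. Dnajb1 and Hspb1 had no 13-letter match but each held 2 copies of the shorter facing form GAANNTTC, which 8.59% of the promoters hold and which also forms part of the longer element. Neither form was in the windows of Hspa1a and Hsp90ab1. The windows follow annotated starts, and whether transcription begins there in this tissue was not tested. An element farther away or at another start would be missed, so its absence here does not show that a gene lacks it. A match is a run of letters, not a measured site of binding.

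Levels are FPKM, in which fragments are divided by the length of the transcript and by how many were mapped, so genes can be compared with each other per length. Constitutive HSP70 and HSP90 made up most of the cytosolic chaperone message. Averaged over the 6 animals, Hspa8 (the constitutive HSP70, HSC70) stood at 1816 FPKM and was 19th of 13104 genes and unmatched transcripts. Hsp90ab1, the constitutive HSP90 beta, stood at 802.9 and Hsp90aa1, the more inducible HSP90 alpha, at 213.7. Then came Dnajb1 at 74.1, Dnaja1 at 53.1, Hsph1 at 28.6 and Hsf1 at 22.9. The second Hspa1 row stood at 15.4 and Hspa1a at 15.0, and Hspb1 came last with 0.435. The ranges over the 6 animals did not touch between Hspa8, Hsp90ab1 and Hsp90aa1, which lay in this order in every animal. From Hsp90aa1 down to Hspa1a, the ranges of neighbours in the order overlapped. The 10 rows together took 0.477%, 0.522% and 0.539% of the summed FPKM in the melatonin animals and 0.733%, 0.598% and 0.553% in the vehicle animals.

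**Figure D1:**
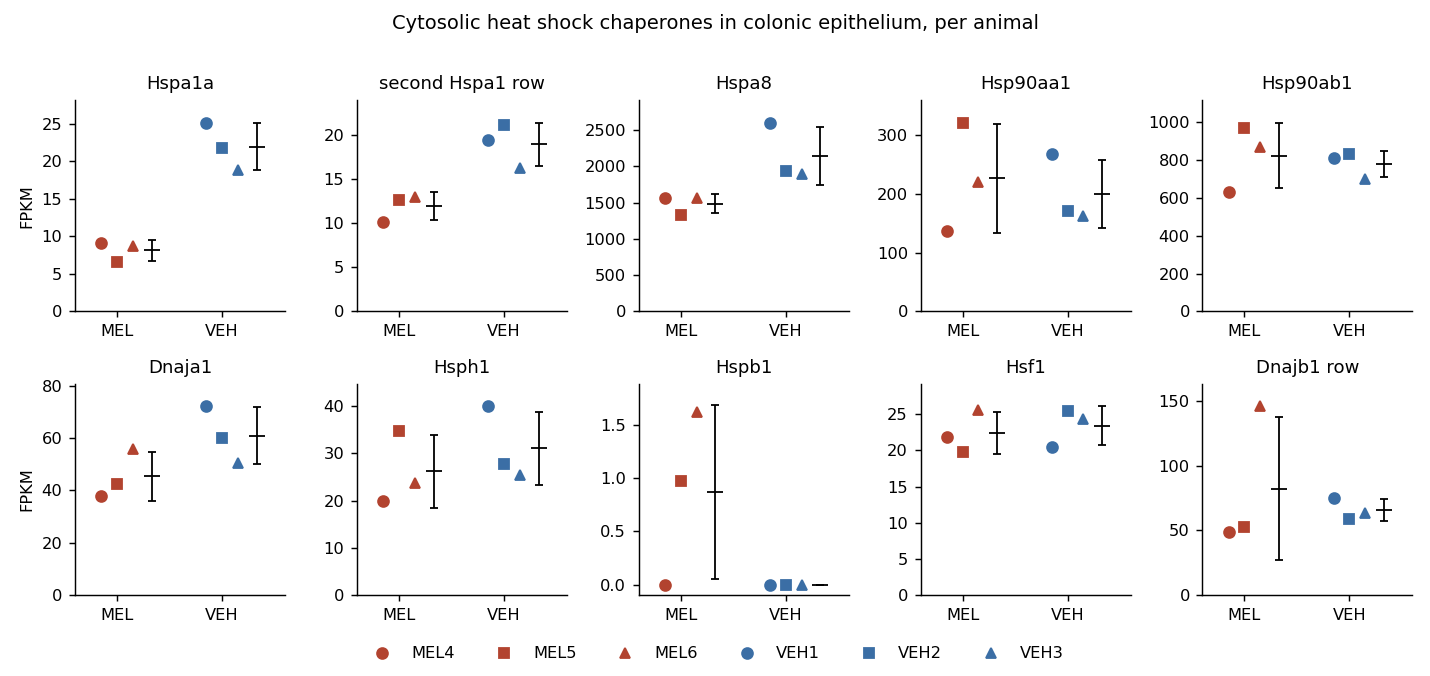
FPKM of the 10 rows in each animal, melatonin (MEL, red) beside vehicle (VEH, blue). The horizontal mark and bar at the right of each group are the mean and SD of 3 animals, and each panel has its own axis. The 3 melatonin animals lie below the 3 vehicle animals for Hspa1a, the second Hspa1 row and Hspa8, and the groups overlap for the others.

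The comparison of melatonin with vehicle asks how the hormone alters expression in the epithelium within hours. In the HSP70 family, the inducible form and the constitutive form were both lower in every melatonin animal than in any vehicle animal. HSP90, Hsph1, Dnaja1, Dnajb1, Hspb1 and Hsf1 overlapped between the groups. None of the rows passed the test over all features. With limma on log2(FPKM + 1) over 10137 features and Benjamini-Hochberg adjustment, 0 of the 9 rows that met the filter of a mean of at least 1 FPKM were called at an adjusted p under 0.05, against 0% of all features. At an unadjusted p under 0.05, 4 of the 9 were lower and 0 higher, where 1.92% of all features were lower and 1.82% higher. 3 of the 9 had groups that did not overlap, all with melatonin below vehicle, where 4.33% of all features had every melatonin animal below and 4.04% had every one above. 2 of these 3 rows, which are also 2 of the 4, are the near-identical Hspa1 rows and may share reads. The members, and the gene lists described below, were chosen with earlier results of these data known. A share above that of all features is therefore not independent support for a difference. limma voom on estimated reads called 0 as well. The median log2 change of the 9 rows was -0.25, with 6 negative and 3 positive, and that of all features tested was -0.02. No cause of any difference was tested, and in bulk tissue fewer cells of a type and less RNA per cell cannot be told apart.

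Hspa1a encodes HSP70-1, the stress-inducible HSP70. It stood at 9.11, 6.55 and 8.72 FPKM in melatonin animals 4, 5 and 6, against 25.15, 21.79 and 18.86 FPKM in vehicle animals 1, 2 and 3. The highest melatonin animal was thus below the lowest vehicle animal by more than the spread within either group, with means of 8.13 ± 1.38 and 21.9 ± 3.15 FPKM (SD, n = 3 each) and a ratio of means of 0.371. On the log2 scale the difference was -1.33 ± 0.17 (SE, 95% interval -1.73 to -0.94), the second smallest p of all features, and its limma adjusted p was 0.254. The values correspond to about 127.6, 93.8 and 124.9 estimated reads in the melatonin libraries and 359.3, 286.0 and 268.7 in the vehicle libraries.

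The second Hspa1 row followed the same order with a smaller difference. It stood at 10.07, 12.62 and 13.00 FPKM in melatonin animals 4, 5 and 6, against 19.44, 21.04 and 16.20 FPKM in vehicle animals 1, 2 and 3. Means were 11.9 ± 1.59 and 18.9 ± 2.47 FPKM (SD, n = 3 each), and the log2 difference was -0.63 ± 0.16 (SE, limma adjusted p = 0.972). Its transcript is 5918 bases long and that of Hspa1a is 4045, and how reads that fit both were divided was not stated by the sources used. The sum of both rows does not depend on that division except through length. It was 19.2, 19.2 and 21.7 FPKM in the melatonin animals and 44.6, 42.8 and 35.1 FPKM in the vehicle animals, so the groups stayed apart. Fitted as 1 feature, the sum differed by -0.99 ± 0.13 on the log2 scale (SE, limma adjusted p = 0.281). The Hspa1a row held 47.5%, 34.2% and 40.1% of the sum in melatonin animals 4, 5 and 6 and 56.4%, 50.9% and 53.8% in vehicle animals 1, 2 and 3. That difference in means of -13.1 percentage points had an exact two-sided permutation p of 0.1, the smallest that 3 animals against 3 can give. Hspa1l, a further HSP70 gene known mainly from testis, overlaps Hspa1a in the RefSeq annotation, and reads of overlapping genes are not told apart without strand. It was listed at 0.26, 0 and 0 FPKM in the melatonin animals and at 0, 0 and 0.61 FPKM in the vehicle animals.

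Hspa8 folds proteins in unstressed cells and uncoats clathrin vesicles. It stood at 1571.20, 1337.18 and 1558.45 FPKM in melatonin animals 4, 5 and 6, against 2604.35, 1932.09 and 1891.68 FPKM in vehicle animals 1, 2 and 3. Vehicle animal 1 was well above the other two vehicle animals, and all 3 were above every melatonin animal. Means were 1489 ± 132 and 2143 ± 400.3 FPKM (SD, n = 3 each), with a log2 difference of -0.51 ± 0.14 (SE, 95% interval -0.84 to -0.19, limma adjusted p = 0.972). Without vehicle animal 1 the log2 difference was -0.36 (limma adjusted p = 0.909, and 0.353 to 1.000 over the 14 alternatives). In FPKM this was the largest difference of the family, since Hspa8 alone held 63.1%, 47.7% and 53.3% of the message of the 10 rows in the melatonin animals and 66.2%, 61.4% and 64.0% in the vehicle animals. The inducible Hspa1 rows formed 1.21%, 1.41% and 1.38% of HSP70 message (the Hspa1 rows plus Hspa8) in the melatonin animals, against 1.68%, 2.17% and 1.82% in the vehicle animals. The difference of -0.56 percentage points had an exact two-sided permutation p of 0.1, the smallest possible here, so the inducible rows were lower relative to Hspa8 as well, without overlap of the groups.

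**Figure D2:**
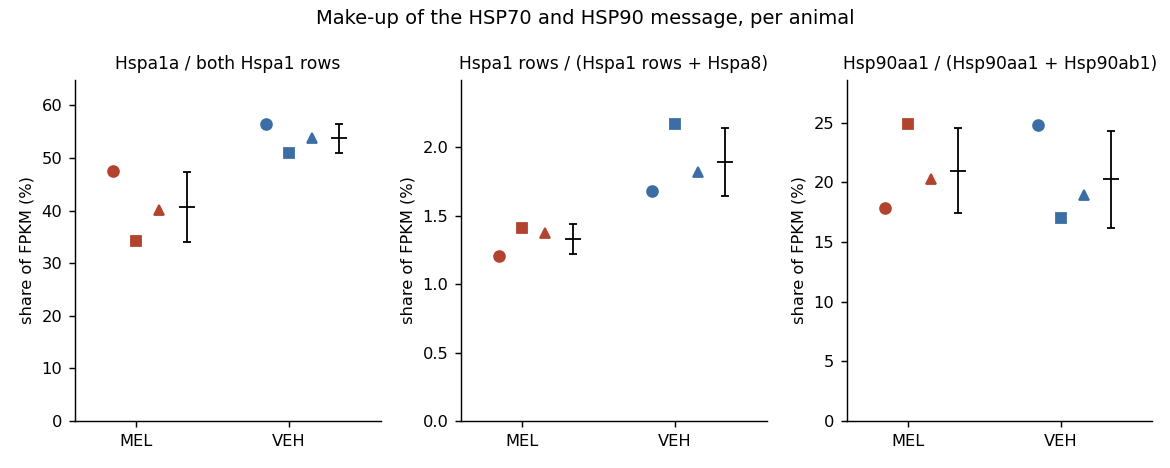
Shares of FPKM in each animal, melatonin (MEL, red) beside vehicle (VEH, blue), with the mean and SD of 3 animals at the right of each group. From left to right are the Hspa1a row within both Hspa1 rows, both Hspa1 rows within HSP70, and Hsp90aa1 within HSP90. The melatonin animals lie below the vehicle animals in the first and second panels and overlap with them in the third.

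Dnaja1 and Dnajb1, the J-proteins, had log2 differences of opposite sign, and the contrast between them was not tested. Dnaja1, a partner of HSP70 in folding and in mitochondrial import, stood at 37.67, 42.61 and 55.83 FPKM in melatonin animals 4, 5 and 6, against 72.08, 59.84 and 50.43 FPKM in vehicle animals 1, 2 and 3. Melatonin animal 6 lay above vehicle animal 3, so the groups overlapped, and the log2 difference was -0.42 ± 0.18 (SE, limma adjusted p = 0.972). Dnajb1, the stress-inducible J-protein HSP40 that works with Hspa1a in releasing aggregates and in holding Hsf1 back, stood at 48.83, 52.25 and 145.69 FPKM in melatonin animals 4, 5 and 6, against 75.18, 58.79 and 63.73 FPKM in vehicle animals 1, 2 and 3. Animal 6 was 2.98 times as high as animal 4, and animals 4 and 5 were below every vehicle animal. The log2 difference was 0.13 ± 0.37 (SE, limma adjusted p = 0.982), and without melatonin animal 6 it was -0.37 (limma adjusted p = 1.000, and 0.693 to 1.000 over the 14 alternatives). The ratio of Dnajb1 to Dnaja1 was 1.30, 1.23 and 2.61 in the melatonin animals and 1.04, 0.983 and 1.26 in the vehicle animals. In animal 6, in which Dnajb1 was highest, Hspa1a was at 8.72 FPKM, between the other two melatonin animals.

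Hsph1, the HSP110 exchange factor of HSP70, stood at 19.95, 34.86 and 23.76 FPKM in melatonin animals 4, 5 and 6, against 39.99, 27.74 and 25.46 FPKM in vehicle animals 1, 2 and 3. The groups overlapped through melatonin animal 5, and the log2 difference was -0.25 ± 0.23 (SE, limma adjusted p = 0.972). Hspa8 message per Hsph1 message was 78.8, 38.4 and 65.6 in the melatonin animals and 65.1, 69.7 and 74.3 in the vehicle animals, so animal 5 had the least Hspa8 for its Hsph1.

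The means of the HSP90 genes differed by less than the SD within either group. Hsp90aa1 stood at 137.25, 321.85 and 221.15 FPKM in melatonin animals 4, 5 and 6, against 267.59, 170.68 and 163.51 FPKM in vehicle animals 1, 2 and 3. Melatonin animals held both the lowest and the highest value, and the log2 difference was 0.13 ± 0.30 (SE, 95% interval -0.57 to 0.83, limma adjusted p = 0.981). Hsp90ab1 stood at 633.11, 972.53 and 869.34 FPKM in melatonin animals 4, 5 and 6, against 811.24, 831.09 and 700.06 FPKM in vehicle animals 1, 2 and 3. Here too animal 4 was lowest and animal 5 highest of the 6, and the log2 difference was 0.06 ± 0.16 (SE, 95% interval -0.31 to 0.43, limma adjusted p = 0.981). Hsp90aa1 formed 17.8%, 24.9% and 20.3% of HSP90 message in the melatonin animals and 24.8%, 17.0% and 18.9% in the vehicle animals (difference 0.73 percentage points, exact two-sided permutation p = 0.7). The intervals leave room for differences in either direction, so equal expression was not shown.

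Hspb1, which binds unfolding proteins without ATP and guards actin filaments, was listed at 0, 0.98 and 1.63 FPKM in melatonin animals 4, 5 and 6 and at 0 in all 3 vehicle animals. The values of animals 5 and 6 correspond to about 3.0 and 4.9 estimated reads. The row did not meet the filter and was not tested, and the authors' deposited table gives it a log2 ratio of 6.45 because a value of 0 was set to 0.01 there. Hsf1 was the steadiest of the tested rows, with 1.29-fold between its lowest and highest animal. It stood at 21.91, 19.77 and 25.57 FPKM in melatonin animals 4, 5 and 6, against 20.44, 25.50 and 24.34 FPKM in vehicle animals 1, 2 and 3, with overlapping groups and a log2 difference of -0.06 ± 0.14 (SE, limma adjusted p = 0.980). These are levels of its mRNA, and Hsf1 is known to be controlled mainly after translation.

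**Figure D3:**
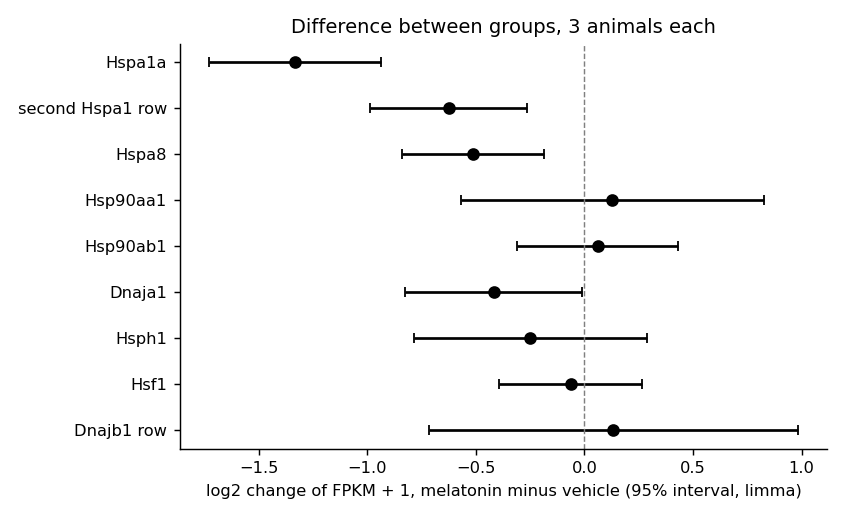
Log2 change of FPKM + 1, melatonin minus vehicle, for the 9 tested rows, with 95% intervals from limma that are not adjusted for the number of features. The intervals of Hspa1a (-1.73 to -0.94), the second Hspa1 row, Hspa8 and Dnaja1 lie below 0, and those of the others include 0.

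Within the groups, single animals stood out across several members. Vehicle animal 1 was the highest of the vehicle animals for 6 of the 9 tested rows, among them Hspa8, Hsp90aa1, Dnaja1 and Hsph1. Vehicle animal 3 was the lowest of the vehicle animals for 7 of the 9. Such counts were not made over all features. Melatonin animal 4 was the lowest of the melatonin animals for 6 of the 9, and was the lowest of all 6 animals for the same number. Melatonin animal 5 was the highest of its group for Hsp90aa1, Hsp90ab1 and Hsph1 and the lowest for Hspa1a, Hspa8 and Hsf1. Over the 9 rows, the median distance from the vehicle mean was -0.51, -0.32 and -0.11 on the log2 scale in melatonin animals 4, 5 and 6, against 0.20, -0.01 and -0.20 in vehicle animals 1, 2 and 3. Animal 6 thus lay within the vehicle range by this median, although its Hspa1a was 1.23 below the vehicle mean.

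**Figure D4:**
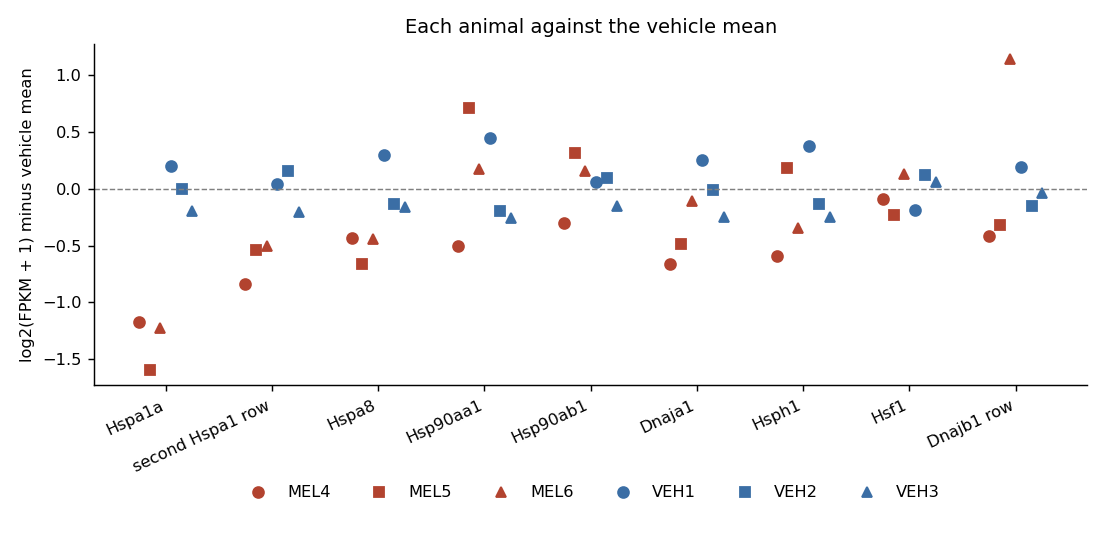
Difference of each animal from the vehicle mean on the log2(FPKM + 1) scale, melatonin animals (red) left of vehicle animals (blue) for each of the 9 tested rows. Hspa1a in the melatonin animals lies between -1.59 and -1.17, while Hsp90aa1, Hsp90ab1, Hsph1, Hsf1 and Dnajb1 have melatonin animals on both sides of 0.

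The wider chaperone network was described by 10 further lists, in which 0 genes were called in either direction. Other cytosolic J-proteins had a median log2 change of -0.10 over 15 tested genes, 10 of them negative. At an unadjusted p under 0.05 there was 1, Dnajb3, known mainly from testis, which stood at 1.73 ± 0.57 FPKM after melatonin and 3.74 ± 0.75 FPKM after vehicle (SD, n = 3 each), with a log2 difference of -0.81 (limma adjusted p = 0.972). Dnaja4 was at 101.80, 54.63 and 56.97 FPKM in the melatonin animals against 101.65, 93.28 and 90.30 FPKM in the vehicle animals, so animal 4 was as high as vehicle animal 1. Dnajb6, which keeps aggregation-prone proteins soluble, was higher in each melatonin animal, at 56.0 ± 4.33 against 47.3 ± 4.53 FPKM (limma adjusted p = 0.972). Groups did not overlap for 3 of the 15 (20%, against 8.38% of all features tested), namely Dnajb3, Dnajb6 and, named after its values were seen, Dnajc7, at 40.33, 40.52 and 38.89 FPKM in the melatonin animals and 43.2, 40.81 and 51.47 FPKM in the vehicle animals. Regulators of HSP70 such as the BAG proteins had a median of -0.11 over 10 genes, 8 of them negative, and Bag4 stood at 8.71 ± 0.96 and 10.6 ± 1.22 FPKM after melatonin and vehicle. Stub1, the ubiquitin ligase CHIP that acts on HSP70 and HSP90 clients, stood at 74.6 ± 3.06 and 82.3 ± 13.5 FPKM.

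Co-chaperones of HSP90 had a median log2 change of -0.04 over 17 genes, 10 negative and 7 positive. Pih1d1, an adaptor of HSP90 in assembling protein complexes, stood at 8.31 ± 1.58 FPKM after melatonin and 11.2 ± 2.15 FPKM after vehicle, and the myosin chaperone Unc45a at 19.8 ± 2.84 and 22.8 ± 1.18 FPKM. Other HSP70 and HSP110 genes had a median of 0.12 over 4 genes, all of them positive, with Hspa4, an HSP110 relative of Hsph1, at 45.8 ± 4.79 and 42.0 ± 1.14 FPKM. Other genes that HSF1 is known to induce had a median of -0.05 over 17 genes, 10 negative and 7 positive. Cacybp, a partner of the ubiquitin ligase component SIAH1, was the 1 member at an unadjusted p under 0.05, at 53.2 ± 5.52 and 66.9 ± 6.89 FPKM without overlap, melatonin being the lower group (log2 difference -0.33, limma adjusted p = 0.972). Mrpl18, a mitochondrial ribosomal protein, had groups apart in the other direction, at 30.5 ± 1.71 and 25.4 ± 1.95 FPKM (limma adjusted p = 0.972). Groups did not overlap for 3 genes of that list (17.6%, against 8.38% of all features tested), these and Bag3, an HSP70 co-chaperone of selective autophagy, which was at 108.57, 109.08 and 111.28 FPKM in the melatonin animals and 121.46, 114.74 and 112.55 FPKM in the vehicle animals and is named after its values were seen. HSF factors and their regulators had a median of 0.08 over 5 genes, and Hsbp1, which binds and restrains HSF1, stood at 130.9 ± 6.77 and 140.2 ± 6.92 FPKM.

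The cytosolic chaperonin TRiC and prefoldin had a median log2 change of 0.04 over 12 genes, and mitochondrial chaperones had one of 0.04 over 11. Hspd1, the mitochondrial HSP60, was at 76.68, 133.18 and 122.71 FPKM in the melatonin animals against 108.30, 72.80 and 91.15 FPKM in the vehicle animals, with animal 4 within the vehicle range. Chaperones of the endoplasmic reticulum had a median of 0.24 over 14 genes, 13 of them positive, and their median distance from the vehicle mean was -0.10, 0.47 and 0.33 in melatonin animals 4, 5 and 6. Hsp90b1, the HSP90 of that compartment, stood at 447.34 and 450.60 FPKM in animals 5 and 6, against 233.75 FPKM in animal 4. In animals 5 and 6, Hsp90aa1 and Hsp90ab1 were above the vehicle mean. Both were also above it in vehicle animal 1 (by 0.45 and 0.06 on the log2 scale), where Hsp90b1 was at 270.35 FPKM. Among the other small heat shock proteins, 2 of 5 rows met the filter. Hspb6, which is known from smooth muscle, stood at 10.4 ± 5.19 and 11.3 ± 1.08 FPKM after melatonin and vehicle, and Hspb8 at 1.56 ± 1.47 and 1.87 ± 0.34 FPKM.

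**Figure D5:**
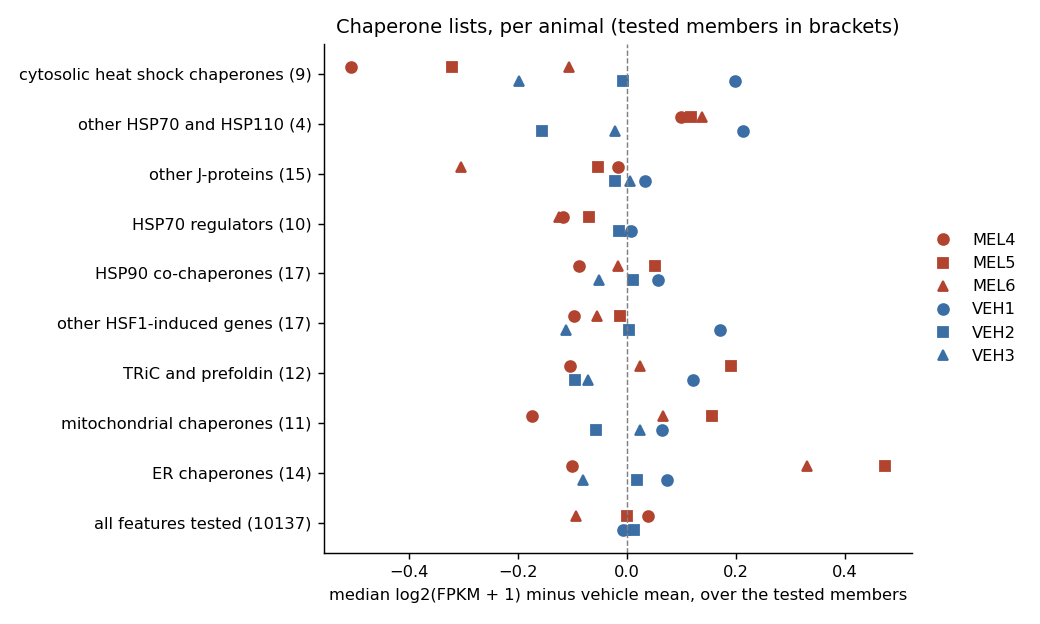
Median difference from the vehicle mean on the log2(FPKM + 1) scale over the tested genes of each list, for each melatonin (red) and vehicle (blue) animal, with all features in the lowest row. The cytosolic heat shock chaperones lie at -0.51, -0.32 and -0.11 in melatonin animals 4, 5 and 6, and the endoplasmic reticulum chaperones at -0.10, 0.47 and 0.33.

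Profiles most like those of 3 members were sought by the root mean square difference of mean-centred log2 values over the 6 animals. For Hspa1a these were Gnal, Kcnip2 and Slc16a12, at differences of 0.24, 0.26 and 0.28, and all 3 were low, with Gnal at 1.82, 0.56 and 1.49 FPKM in the melatonin animals and 5.32, 2.85 and 3.11 FPKM in the vehicle animals. For Hspa8 they were C11h3orf38, Tpm2 and Nt5c3b, at 0.08, 0.10 and 0.10, and Tpm2 was low, at 0.52 to 1.81 FPKM. For Hsf1 they were Pparg, Dgka and Nectin4, at 0.03, 0.04 and 0.05, and Nectin4 was low, at 2.01 to 3.08 FPKM. The scale of log2(FPKM + 1) understates the differences of such low genes.

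Depth and tissue make-up were checked for the whole table. The libraries held an estimated 3280000 to 3580000 mapped fragments, from the steps between low FPKM values. All 12 markers of absorptive colonocytes and epithelium had a row, with summed levels of 10194 to 11701 FPKM in melatonin animals and 10978 to 11577 FPKM in vehicle animals. Smooth muscle markers (8 of 9 with a row) summed to 48.1 to 70.2 FPKM in melatonin and 63.2 to 71.7 FPKM in vehicle animals. Acta2 was at 0 to 0.21 FPKM and Actg2 at 0 to 0.23 FPKM over the 6 animals, so the sum came from other members of that list. T and NK cell markers (10 of 10) summed to 10.2 to 50.3 and 6.06 to 17.6 FPKM, red cell genes (6 of 6) to 77.5 to 133 and 128 to 171 FPKM, and myeloid markers (9 of 10) to 121 to 150 and 105 to 177 FPKM. Of the myeloid markers, Adgre1 was at 0 to 0.35 FPKM and Aif1 at 0.47 to 3.01 FPKM, so that sum came mostly from others. Goblet cell markers (5 of 7) summed to 7728 to 9013 FPKM in melatonin and 7864 to 10013 FPKM in vehicle animals. Fibroblast markers (7 of 7) summed to 8.09 to 11.5 and 6.77 to 9.61 FPKM, endothelial markers (5 of 6) to 2.63 to 4.91 and 2.26 to 4.24 FPKM, and B and plasma cell markers (4 of 7) to 0 to 9.87 and 0.70 to 1.86 FPKM. Interferon-induced genes (16 of 16) summed to 129, 375 and 484 FPKM in melatonin animals 4, 5 and 6 and to 139 to 164 FPKM in vehicle animals, so animal 4 was the lowest of the 6 and animals 5 and 6 the highest. Immediate early genes (16 of 16), which respond to handling and other acute stimuli, summed to 644 to 915 and 547 to 761 FPKM. All 14 tested immediate early genes had a positive log2 change (median 0.18), as had all 15 tested interferon-induced genes (median 0.64). In both lists 0 were called, and 4659 of all 10137 features tested were positive. All 13104 features in the table were above 0 in at least 1 animal. Having a row is thus the only sign of detection here, and a marker without one cannot be judged. The part of these lists in the chaperone values was not tested.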

How the data were processed

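Polyadenylated RNA of 6 animals was sequenced after random priming, and no strand marking is described per the labels' protocols. RNA integrity numbers were 9.0 to 9.7. The authors' deposited table gives FPKM for 13647 RefSeq transcripts in each animal, rounded to 2 decimals, with the transcript length, group means in FPKM, the log2 ratio of those means and a score headed as a probability, per the file headers, from a tool that no source used here states. BWA 0.7.10-r789, Bowtie2, RSEM and build rn6 are named, without roles, in the submitters' processing notes.

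Transcripts were matched by accession to RefSeq genes (GRCr8, for names and promoters), 12883 in all, and FPKM was summed per gene, which left 13104 features with the 764 unmatched transcripts. Features with a mean of at least 1 FPKM were fitted with limma 3.58.1 (R 4.3.3, mean trend, two-sided) on log2(FPKM + 1), which understates changes of low genes, with a threshold of 0.05 after Benjamini-Hochberg adjustment. The fit was tested on simulated data. Shares were compared by exact permutation (scipy 1.17.1). Reads were estimated from FPKM, length less 43 bases and a depth at which 86.8% to 93.5% of the low values used lay within 0.1 of whole reads. Not every RSEM value is a whole number of reads, so depth is approximate.

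The members and lists were chosen with earlier results of these data known. All members were described. Named genes were, by rule, the 3 with the smallest p in each chaperone list, of which the text gives a part, and Hspa1l was added after its values were seen. Alternatives were another pseudocount, 2 other filters, 2 scalings, voom, unsummed transcripts, summed Hspa1 rows and leaving out each animal. p-values measure the spread between the 3 animals of a group.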

Additional observations from a re-analysis of the deposited data

How the results depend on the processing

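The count of 0 called among the chaperone rows held under all 14 alternatives, with smallest adjusted p-values of 0.0733 to 0.836 (limma), the lowest without melatonin animal 4. Over all features, 1 was called with no filter, and leaving out 1 animal gave 0 to 4. These were 4 without melatonin animal 4 and 3 without vehicle animal 1. The log2 differences of Hspa1a (-1.43 to -1.20, and -0.99 for the sum of both Hspa1 rows), the second Hspa1 row (-0.73 to -0.52), Hspa8 (-0.59 to -0.36), Dnaja1 (-0.57 to -0.29) and Hsph1 (-0.47 to -0.06) kept their sign under every alternative run. Of 125 alternative values of single rows, 5 turned sign, each on leaving out 1 animal. Without melatonin animal 5 Hsp90aa1 was at -0.165, Hsp90ab1 at -0.0696 and Hsf1 at 0.0203. Without vehicle animal 3 Hsp90ab1 was at -0.0161, and without melatonin animal 6 Dnajb1 was at -0.37. When 1 animal was left out, these ran from -0.17 to 0.45 for Hsp90aa1, -0.07 to 0.24 for Hsp90ab1, -0.16 to 0.02 for Hsf1 and -0.37 to 0.41 for Dnajb1. The HSP90 alpha share difference ran from -1.21 to 3.00 percentage points when 1 animal was left out, and turned without melatonin animal 5 (-1.21) or vehicle animal 2 (-0.88). The share differences of the inducible HSP70 rows (-0.66 to -0.42) and of Hspa1a within the Hspa1 rows (-16.5 to -9.87) kept their sign. The cause of these shifts was not tested. No paired analysis was possible because the melatonin and vehicle animals share no replicate numbers. Depth limits Hspb1, which rests on at most 4.9 estimated reads in a library.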
